A study of Ovis aries with 8 samples.

Results

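Cholesterol is built from acetyl-CoA through mevalonate, farnesyl diphosphate, squalene and lanosterol, by enzymes of the cytosol and endoplasmic reticulum. Most of their genes are targets of SREBP2, the transcription factor encoded by SREBF2, which SCAP carries to the Golgi for cleavage when membrane sterol is low and which INSIG proteins hold back when sterol is plentiful. The liver uses the product for lipoproteins and bile acids, and it also takes up, esterifies and secretes sterol. The genes described here are the enzymes of that route, the machinery that processes SREBP2 and genes of sterol transport, uptake and esterification. They were taken by gene symbol from a list of named genes, a rule that applies no measured value, although the list was drawn up with earlier results of these data known. Of 34 listed symbols, 32 had a row among the 27729 genes of the deposited table, and all 32 passed the filter on low values and were tested. IDI1 and CYP51A1 had no row under those symbols.

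The study set restricted against free intake of milk replacer before weaning, in the livers of 8 Assaf lambs with 1 RNA library each. Intake was held to 120 mL of replacer per kg in 4 RES lambs (RES 1 to RES 4) and was ad libitum, at 192 mL per kg, in 4 ADL lambs (ADL 1 to ADL 4). At slaughter RES lambs weighed 7.5 to 8.7 kg and ADL lambs 10.4 to 12.45 kg, and both groups were 33 to 36 days old. Values are the authors' TPM (reads per gene, scaled by gene length and library total), and those after ± are SDs with n = 4 unless another n is given. Log2 fold changes are RES over ADL on the log2(TPM + 0.5) scale, with their standard error (SE), and adjusted p-values are from limma across all 13812 genes tested. Each p-value sets the difference between the groups against the spread between lambs within them, which limma estimates partly from the other genes.

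Each library held 15134039 to 17879918 reads assigned to genes, and the sterol genes had between 98 and 7212 reads per lamb. The 6 hepatocyte markers summed to 84340 to 154800 TPM in RES and 87760 to 120300 TPM in ADL, far above every other cell type list. Sums of 5 Kupffer cell and leukocyte markers were 608 to 743 TPM in RES and 475 to 607 TPM in ADL. Sums of 5 cholangiocyte markers were 8.74 to 20.3 TPM in RES and 20.8 to 47.9 TPM in ADL, and sums of 6 stellate cell and fibroblast markers were 263 to 409 TPM in RES and 377 to 510 TPM in ADL. Sums of 6 sinusoidal endothelial markers were 227 to 320 TPM in RES and 219 to 415 TPM in ADL, and 3 adrenal steroidogenic markers reached at most 2.58 TPM. The Kupffer cell and leukocyte sums were higher in RES and the cholangiocyte sums lower, both narrowly without overlap between the groups, and the other sums overlapped. No marker passed limma's threshold in the 8 lambs. Only 0.00724% of all genes did (1 gene), so that count cannot show that cell types were alike. The part of these cell types in the sterol genes was not tested. In whole liver, fewer cells of a type and less RNA per cell cannot be told apart. ADL 3 lay away from the other ADL lambs, with a median deviation over all genes of -0.26, where they had 0.0085 to 0.23. For MVK and PMVK, among others, it was at RES level, but over all genes it lay inside the RES range in 38.3%, against 34.2% to 42.5% for the other ADL lambs. Whether ADL 3 stands under the right label cannot be told from the sources used here, and it was kept in ADL. Results without it, a comparison planned for each lamb but singled out here after the values were known, are given where the call, the sign or the size (by over 1.5 times) changed.

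Most enzymes of cholesterol synthesis were higher in RES livers than in ADL livers, while the kinases of mevalonate and phosphomevalonate were lower. Of 18 enzymes, 13 had a positive log2 fold change, as did 6014 of all 13812 genes tested. The median was 0.62 over the 18 enzymes, against -0.04 over all genes tested. The 14 genes of SREBP2 processing and of sterol transport, uptake and esterification were split evenly, 7 higher and 7 lower, with a median of -0.01. None of the 32 genes passed limma's adjusted threshold of 0.05 in the 8 lambs, where 0.00724% of all genes did (1 gene). None passed with voom on reads. An exact permutation test passed none either, but it could not decide this. Its smallest p is 0.0286, which adjustment across all genes keeps above 0.05 unless most genes reach it. In the limma fit an unadjusted p under 0.05 was reached by 13 of the 32 genes, against 9.70% of all genes. Of these, 10 were higher (5.53% of all genes) and 3 lower (4.17% of all genes). In 7 of the 32 genes the groups did not overlap, against 4.48% of all genes, which gives an exact permutation p of 0.0286, unadjusted and the smallest that 4 lambs against 4 allow. RES lay above ADL in 6 of them (ACAT2, MVD, FDPS, FDFT1, LSS and NSDHL), against 2.80% of all genes, and below it in SCAP alone, against 1.68% of all genes.

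Without ADL 3, 9 of the 32 genes passed limma's threshold, against 10.0% of all genes. ACAT2, FDPS, FDFT1, LSS, NSDHL and SCARB1 rose in RES (6 of 32, against 2.42% of all genes), and MVK, PMVK and GGPS1 fell (3 of 32, against 7.59%). Leaving out any other lamb left no sterol gene past the threshold, also without RES 4, where 0.355% of all genes passed (0.275% higher and 0.0796% lower). The median of all genes was -0.13 without ADL 3, and rescaling the same 7 lambs by median of ratios moved it to 0.0068, while the median of the 32 genes went to 0.36, against 0.22 before rescaling. After that rescaling 8 of the 9 passed, against 8.33% of all genes, and GGPS1 did not (limma adjusted p = 0.2). The 8 were 6 higher, against 4.46% of all genes, and 2 lower, against 3.87%. With all lambs kept but weighted by sample quality, 9 genes passed as higher, against 5.28% of all genes, and 3 as lower, against 8.98% (together 12, against 14.3%).

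**Figure D1:**
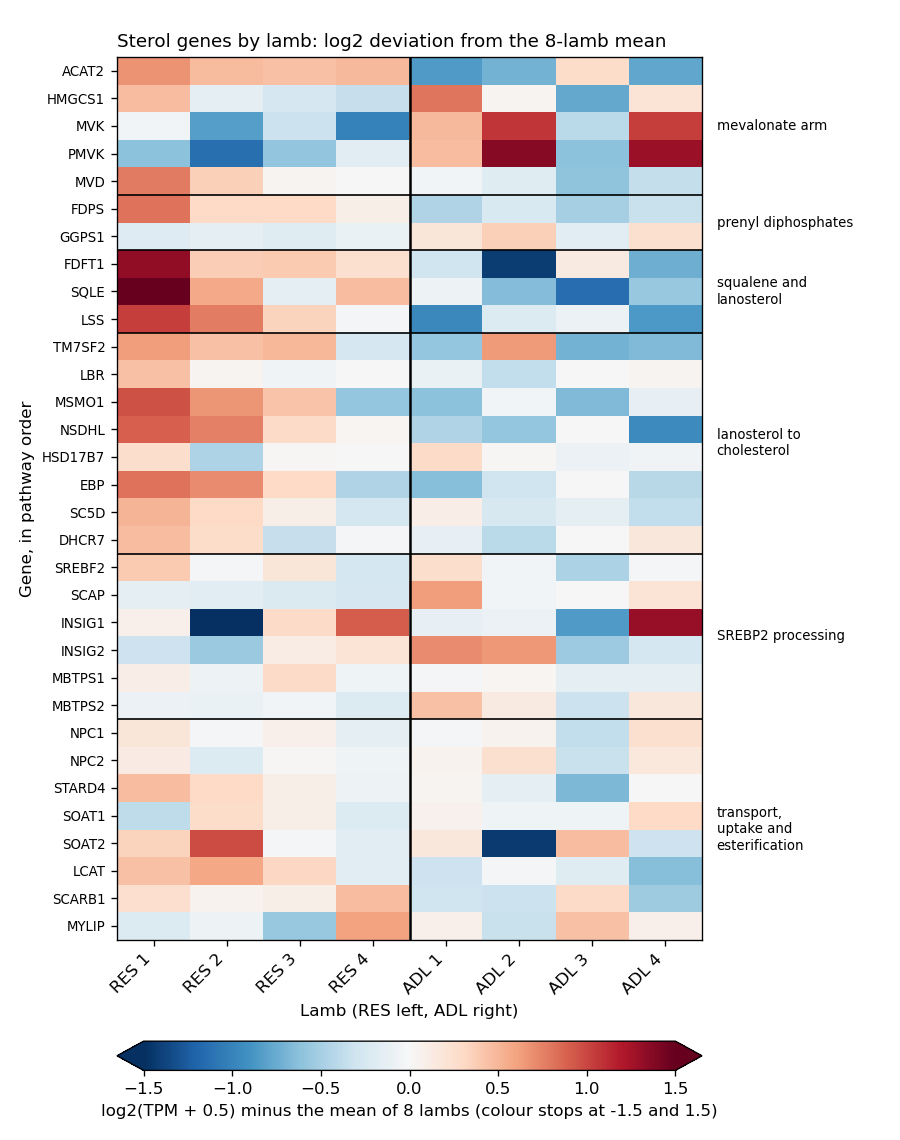
Log2(TPM + 0.5) of each of the 32 genes (down the page, in pathway order) in each of the 8 lambs (RES left, ADL right), as the deviation from the gene's mean over the 8 lambs. Red cells, above the mean, lie in the RES columns for most enzymes from FDPS to EBP, strongest in RES 1, whereas MVK and PMVK are red in ADL 1, ADL 2 and ADL 4.

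The mevalonate arm divided by enzyme. ACAT2, the cytosolic thiolase that joins acetyl-CoA units, is on chromosome 8 at 82631840 to 82641115 in the coordinates of the table, which are on a build not given in the sources used here. It had 514, 445, 438 and 449 TPM in RES 1 to RES 4, against 178, 196, 388 and 187 TPM in ADL 1 to ADL 4. The groups did not overlap, and ADL 3 stood nearer to the RES lambs than to its own group. The 8 lambs gave a log2 fold change of 1.04 (SE 0.25, limma adjusted p = 0.280). With ADL 3 left out, ACAT2 rose by 1.30 (SE 0.12, limma adjusted p = 0.00225), averaging 462 ± 35.3 TPM in RES and 187 ± 8.99 TPM in ADL (n = 3). HMGCS1, which adds the next acetyl unit, had 103, 67.8, 62.7 and 58.8 TPM in RES and 130.2, 76.8, 43.5 and 85.8 TPM in ADL, with overlapping groups (log2 fold change -0.13, SE 0.32, limma adjusted p = 0.921; -0.41 and 0.297 without ADL 3).

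MVK, which phosphorylates mevalonate, is encoded by 10 exons on chromosome 17, at 63262883 to 63281329. It had 34.8, 19.96, 28.4 and 17.4 TPM in RES 1 to RES 4 and 50.4, 75.6, 26.8 and 73.6 TPM in ADL 1 to ADL 4. All RES lambs lay below ADL 1, ADL 2 and ADL 4, and ADL 3 lay inside the RES range. MVK differed by -1.10 on the log2 scale (SE 0.35, limma adjusted p = 0.362) and fell by 1.41 once ADL 3 was left out (SE 0.26, limma adjusted p = 0.0192). PMVK, which adds the second phosphate, is on chromosome 1 at 103605617 to 103617555, with 6 exons. Its levels were 29.1, 20.2, 29.6 and 39.8 TPM in RES and 61.9, 116, 29.2 and 111 TPM in ADL. ADL 3 again lay among the RES lambs, and the other ADL lambs were above all of them. PMVK differed by -1.25 on the log2 scale (SE 0.41, limma adjusted p = 0.382) and fell by 1.67 once ADL 3 was left out (SE 0.28, limma adjusted p = 0.0151).

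MVD, the decarboxylase that turns the kinases' product into isopentenyl diphosphate, differed the other way. It had 43.7, 32.5, 26.1 and 25.2 TPM in RES and 24.4, 22.2, 16.5 and 19.6 TPM in ADL. The groups touched closely without overlap, and ADL 3 was the lowest of the 8 lambs (log2 fold change 0.59, SE 0.21, limma adjusted p = 0.416; 0.146 without ADL 3). The ratio of MVD to PMVK in TPM, a comparison of neighbouring steps within each lamb that was chosen after the values were seen, was 0.634 to 1.61 in RES and 0.176 to 0.566 in ADL, ADL 3 included. The ratio of PMVK to MVK was 0.837 to 2.28 in RES and 1.09 to 1.54 in ADL. The ratio to MVD did not overlap between the groups, and the ratio between the kinases did.

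**Figure D2:**
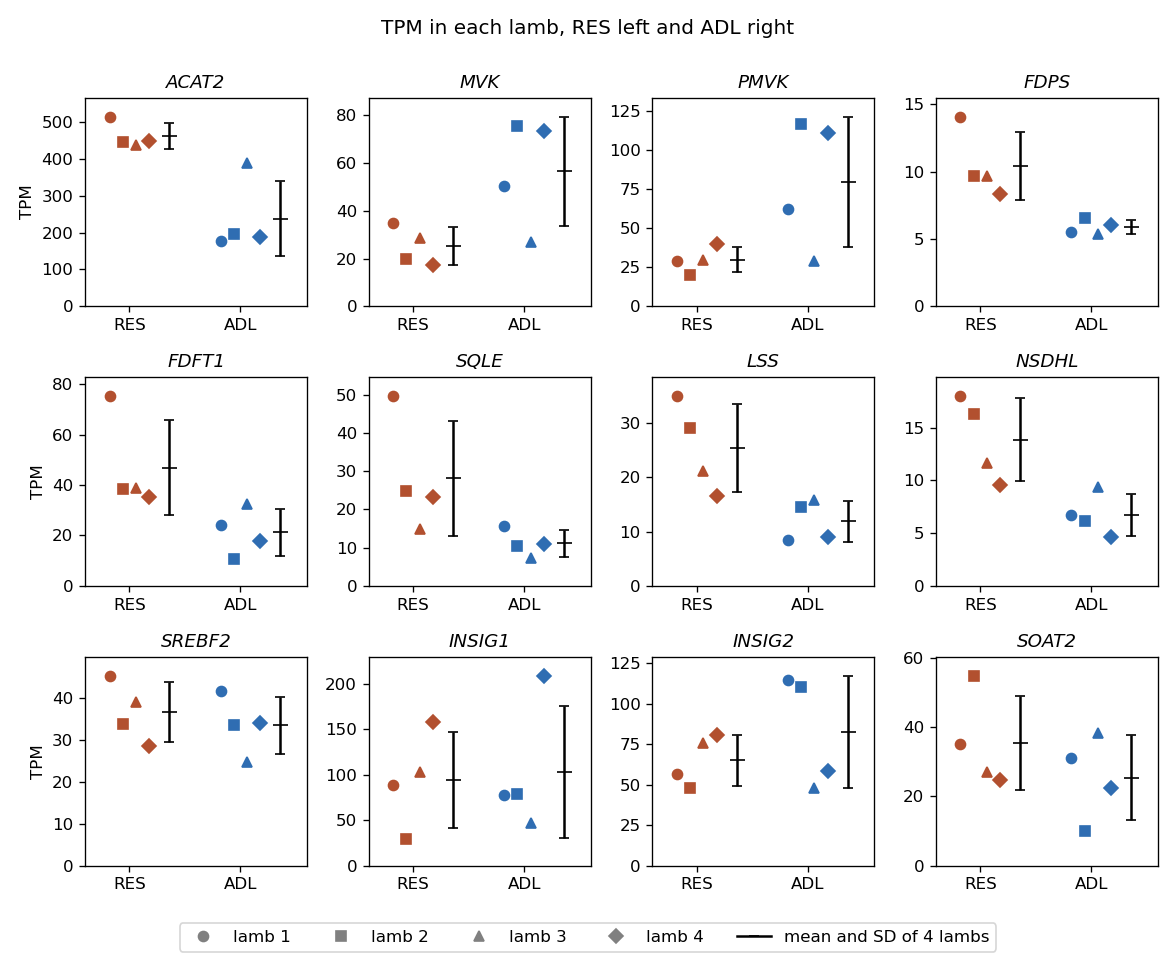
TPM (vertical axes, from 0) of 12 sterol genes in each lamb, RES left and ADL right, with a symbol per lamb number and the mean and SD of 4 lambs beside each group. ACAT2, FDPS, FDFT1, LSS and NSDHL show no overlap between groups, MVK and PMVK show ADL 3 (triangle) at RES level, and SREBF2, INSIG1, INSIG2 and SOAT2 overlap.

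Isopentenyl units are joined into farnesyl diphosphate by FDPS, the branch point to sterols, and extended by GGPS1 to geranylgeranyl diphosphate, which is attached to proteins. FDPS, on chromosome 1 at 103948444 to 103957763 with 11 exons, had 14.1, 9.70, 9.67 and 8.30 TPM in RES 1 to RES 4 and 5.53, 6.57, 5.37 and 6.06 TPM in ADL 1 to ADL 4. No lamb crossed between the groups, and ADL 3 lay with its own group. FDPS averaged 10.4 ± 2.52 TPM in RES and 5.88 ± 0.547 TPM in ADL (log2 fold change 0.75, SE 0.18, limma adjusted p = 0.280), and it rose by 0.72 in the fit without ADL 3 (SE 0.18, limma adjusted p = 0.0442). FDPS lies 330889 bases from PMVK on the same chromosome, and their fold changes had opposite signs. GGPS1 was at 6.24 to 6.67 TPM in RES and at 6.36 to 9.31 TPM in ADL, where ADL 3 had the lowest value (log2 fold change -0.31, SE 0.15, limma adjusted p = 0.570).

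The 3 enzymes that lead from farnesyl diphosphate to lanosterol were all higher in RES, with log2 fold changes of 1.06 to 1.22. FDFT1 makes squalene, the first product committed to sterols, and is on chromosome 2 at 104410624 to 104437692. It had 75.2, 38.4, 39.0 and 35.1 TPM in RES and 24.0, 10.7, 32.5 and 17.7 TPM in ADL. RES 1 was far above the other RES lambs, and ADL 3 was the highest ADL lamb, just below RES 4. FDFT1 had a log2 fold change of 1.16 over the 8 lambs (SE 0.35, limma adjusted p = 0.333) and rose by 1.40 in the fit without ADL 3 (SE 0.33, limma adjusted p = 0.0378).

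SQLE, the squalene epoxidase, lies on chromosome 9 at 27905527 to 27927180. It had 49.6, 24.9, 14.9 and 23.2 TPM in RES and 15.8, 10.4, 7.24 and 11.1 TPM in ADL. The groups overlapped by RES 3 and ADL 1 alone, and ADL 3 had the lowest value of all lambs. SQLE had the largest positive log2 fold change of the 32 genes (1.22, SE 0.35, limma adjusted p = 0.307), which was 1.04 without ADL 3 and did not pass there (adjusted p = 0.0999). LSS, which closes the rings to form lanosterol, is on chromosome 1 at 263836789 to 263868476, with 21 exons. It had 34.9, 28.98, 21.3 and 16.5 TPM in RES and 8.36, 14.5, 15.7 and 9.03 TPM in ADL, with RES 4 just above ADL 3. LSS had a log2 fold change of 1.06 (SE 0.28, limma adjusted p = 0.292) and rose by 1.20 in the fit without ADL 3 (SE 0.28, limma adjusted p = 0.0376).

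Between lanosterol and cholesterol, 7 of the 8 enzymes had positive log2 fold changes (median 0.49, range -0.08 to 0.99). NSDHL, a dehydrogenase in the removal of methyl groups from the ring, is on chromosome X at 78243293 to 78273172. It had 18.0, 16.2, 11.6 and 9.60 TPM in RES and 6.72, 6.14, 9.42 and 4.62 TPM in ADL, so that RES 4 and ADL 3 nearly met. NSDHL had a log2 fold change of 0.99 (SE 0.25, limma adjusted p = 0.282) and rose by 1.15 in the fit without ADL 3 (SE 0.23, limma adjusted p = 0.0248). MSMO1, the oxidase of the same demethylation, was much more abundant, with 406, 331, 281 and 139.6 TPM in RES and 136, 203, 133 and 192 TPM in ADL. RES 1, RES 2 and RES 3 were above every ADL lamb, whereas RES 4 lay with ADL (log2 fold change 0.72, SE 0.32, limma adjusted p = 0.504).

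EBP, the sterol isomerase, repeated that order. It had 148, 137, 104 and 61.3 TPM in RES and 53.7, 68.4, 84.3 and 62.9 TPM in ADL (log2 fold change 0.68, SE 0.28, limma adjusted p = 0.489). When both ADL 3 and RES 4 were left out, an alternative added after the data were seen, MSMO1 and EBP rose by 0.94 and 1.06 (limma adjusted p = 0.0371 and 0.0165), and 10 of the 32 genes passed, against 8.28% of all genes. Of those 10, 8 rose, against 3.21% of all genes, and 2 fell, against 5.07%. TM7SF2 and LBR, which share sterol reductase activity, had log2 fold changes of 0.65 and 0.21. TM7SF2 had 24.5 to 45.3 TPM in RES. The ADL lambs had 17.7 to 19.4 TPM of it, other than ADL 2 with 46.0 TPM. The desaturase SC5D (160 to 274 TPM in RES, 149 to 206 TPM in ADL), the reductase DHCR7 (8.51 to 15.3 TPM in RES, 8.19 to 12.4 TPM in ADL) and the ketosteroid reductase HSD17B7 (2.47 to 4.39 TPM in RES, 3.33 to 4.50 TPM in ADL) overlapped between the groups. Their log2 fold changes were 0.32, 0.19 and -0.08, and that of HSD17B7 was -0.13 without ADL 3.

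Both absent symbols correspond to rows that the table describes by enzyme name, outside the rule and outside all counts here. LOC101108851, described as isopentenyl-diphosphate Delta-isomerase 1, had 85.5 to 260 TPM in RES and 77.3 to 124 TPM in ADL (log2 fold change 0.45, SE 0.34, limma adjusted p = 0.714). LOC101113583, described as lanosterol 14-alpha demethylase, had 121, 69.4, 55.2 and 46.1 TPM in RES and 40.5, 62.9, 18.8 and 40.5 TPM in ADL (log2 fold change 0.86, SE 0.39, limma adjusted p = 0.519; 0.53 and 0.310 without ADL 3). In the demethylase, ADL 2 was above RES 3 and RES 4, and ADL 3 was the lowest lamb.

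**Figure D3:**
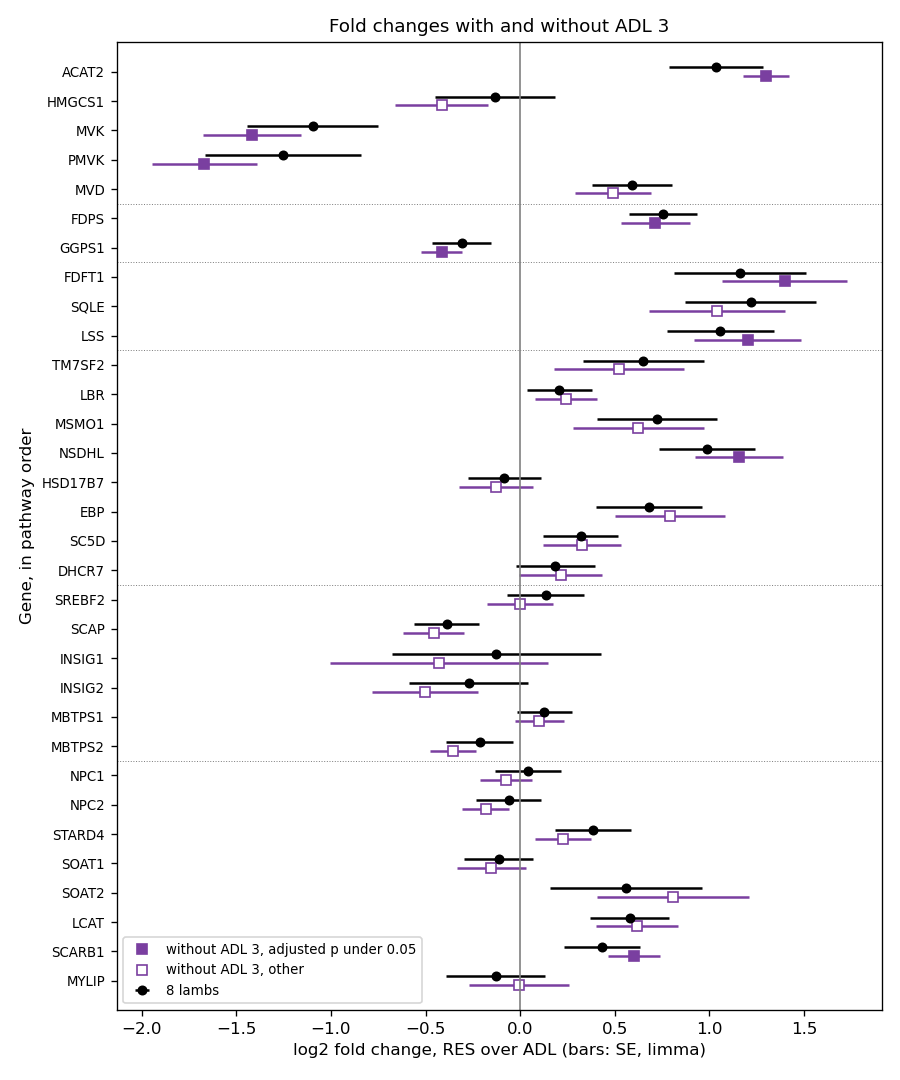
Log2 fold change of RES over ADL (horizontal axis) with its SE for each gene in pathway order, for 8 lambs (black circles) and without ADL 3 (purple squares, filled where limma's adjusted p was under 0.05). The filled squares are ACAT2, MVK, PMVK, FDPS, GGPS1, FDFT1, LSS, NSDHL and SCARB1 (9 of 32, against 10.0% of all genes). None of the 6 genes of SREBP2 processing is among them, which lies near that share.

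None of the 6 genes that control SREBP2 passed limma's threshold in the 8 lambs, where 0.00724% of all genes did. None passed without ADL 3 either, where 10.0% of all genes did. With so few genes, 0 of 6 lies near both shares and does not set them apart. In the 8 lambs 4 of the 6 had negative log2 fold changes (median -0.17). So did 7798 of all 13812 genes tested (median -0.04). SREBF2 had 45.3, 33.7, 39.1 and 28.6 TPM in RES 1 to RES 4 and 41.6, 33.5, 24.7 and 34.0 TPM in ADL 1 to ADL 4. The groups overlapped across nearly their whole range, with ADL 3 lowest (log2 fold change 0.13, SE 0.20, limma adjusted p = 0.864; -0.0013 and 0.997 without ADL 3). SCAP, the escort of SREBP2, had 11.02, 10.8, 10.5 and 10.3 TPM in RES and 19.1, 11.9, 12.2 and 14.2 TPM in ADL. RES lambs were closely grouped below every ADL lamb, and ADL 1 was the highest (log2 fold change -0.39, SE 0.17, limma adjusted p = 0.512). The proteases that release SREBP2 in the Golgi, MBTPS1 and MBTPS2, had log2 fold changes of 0.13 and -0.21, with 31.2 ± 3.88 and 9.71 ± 0.503 TPM in RES and 28.4 ± 1.73 and 11.5 ± 2.50 TPM in ADL.

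INSIG1 and INSIG2 hold SCAP in the endoplasmic reticulum, and INSIG1 is itself a target of SREBP2. INSIG1 had 88.9, 29.1, 103 and 158 TPM in RES and 77.5, 79.3, 46.5 and 209 TPM in ADL. It varied 7.19-fold over the 8 lambs, the widest span of the 32 genes, with the lamb numbered 4 highest in each group. INSIG1 had a log2 fold change of -0.13 with the largest error of the 32 genes (SE 0.55, limma adjusted p = 0.959). INSIG2 had 56.4, 47.6, 75.5 and 81.0 TPM in RES and 115, 110.2, 47.7 and 58.3 TPM in ADL. ADL 1 and ADL 2 were above all RES lambs, and ADL 3 and ADL 4 lay inside the RES range (log2 fold change -0.27, SE 0.31, limma adjusted p = 0.816). Without ADL 3 the log2 fold changes of INSIG1, INSIG2 and MBTPS2 were -0.43, -0.50 and -0.36, none past the threshold (limma adjusted p = 0.658, 0.271 and 0.0966). The ratio of INSIG2 to INSIG1 was 0.513 to 1.64 in RES and 0.279 to 1.48 in ADL.

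Among genes of transport, uptake and esterification, SCARB1, the liver receptor for high-density lipoprotein, was the gene that passed without ADL 3. It had 28.1, 24.2, 25.004 and 32.5 TPM in RES and 18.9, 18.6, 28.7 and 16.1 TPM in ADL. ADL 3 was above 3 RES lambs, and the other ADL lambs were below all of them. SCARB1 had a log2 fold change of 0.43 (SE 0.20, limma adjusted p = 0.528) and rose by 0.60 in the fit without ADL 3 (SE 0.14, limma adjusted p = 0.0350). LCAT, which the liver secretes to esterify cholesterol in plasma, was the second most abundant of the 32 genes. It had 363, 400.3, 332 and 239 TPM in RES and 216, 263, 236 and 172 TPM in ADL, overlapping by RES 4 and ADL 2 (log2 fold change 0.58, SE 0.21, limma adjusted p = 0.426).

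SOAT2, which makes cholesteryl esters for storage and lipoproteins, had 35.1, 54.8, 27.0 and 24.8 TPM in RES and 31.1, 9.88, 38.2 and 22.3 TPM in ADL. The groups overlapped, with ADL 2 alone below 20 TPM (log2 fold change 0.56, SE 0.40, limma adjusted p = 0.707). SOAT1, its counterpart in most other tissues, had 5.20, 8.43, 7.34 and 5.94 TPM in RES and 7.25, 6.55, 6.57 and 8.58 TPM in ADL (log2 fold change -0.11, SE 0.18). SOAT2 exceeded SOAT1 in every lamb, by 3.68 to 6.75 times in RES and 1.51 to 5.82 times in ADL. STARD4, a cytosolic sterol carrier, had 15.2 to 22.3 TPM in RES and 9.91 to 16.5 TPM in ADL, with a log2 fold change of 0.38. NPC1 and NPC2, which export sterol from lysosomes, and MYLIP, a ubiquitin ligase that marks lipoprotein receptors for breakdown, had log2 fold changes of 0.04, -0.06 and -0.13. Without ADL 3, STARD4, NPC1, NPC2 and MYLIP had log2 fold changes of 0.22, -0.075, -0.18 and -0.0054, none past limma's threshold.

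The order of lambs within a group was shared by many enzymes. RES 1 was the highest RES lamb in 16 of 18 synthesis enzymes (88.9%), against 25.1% of all genes, and RES 4 was the lowest in 11 of 18 (61.1%), against 41.9% of all genes. The exceptions to RES 1 were PMVK and GGPS1, both highest in RES 4. Summed over the 18 enzymes, TPM came to 1829, 1481, 1338 and 1099 in RES 1 to RES 4 and to 952, 1044, 1013 and 982 in ADL 1 to ADL 4. The RES lambs thus spread widely and the ADL lambs, ADL 3 included, were close together in this sum. The closeness of ADL 3 rests in part on 1 gene. ACAT2 made up 388 TPM of its sum, against 178, 196 and 187 TPM in ADL 1, ADL 2 and ADL 4. ADL 3 lay inside the RES range for 8 of 18 enzymes (44.4%), against 38.3% of all genes, and was the lowest ADL lamb for 10 of 18 (55.6%), against 58.4% of all genes.

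**Figure D4:**
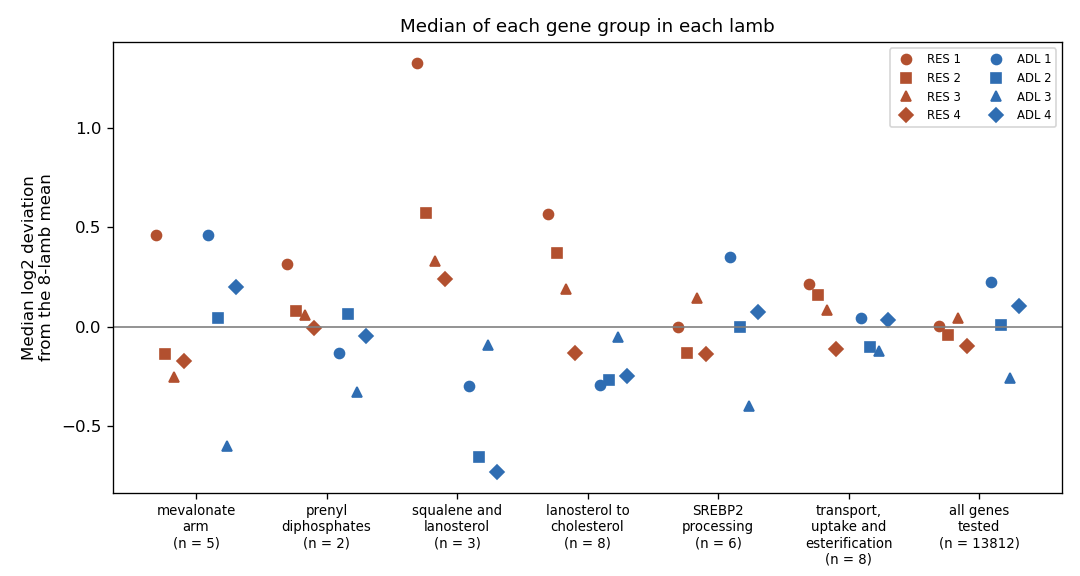
Median log2 deviation from the 8-lamb mean (vertical axis) over the genes of each role and over all genes tested (horizontal axis), with a symbol per lamb, RES left and ADL right. The enzymes from squalene to lanosterol lie at 0.24 to 1.33 in RES and -0.73 to -0.09 in ADL, whereas all genes together lie between -0.10 and 0.05 in RES and between -0.26 and 0.23 in ADL.

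Levels, which TPM allows to be compared between genes, were not matched along the route. ACAT2 was the most abundant of the 32 genes, with a mean of 462 TPM in RES and 237 TPM in ADL, and ranked 365 among all genes in the table by mean TPM. It was followed by LCAT, MSMO1 (289 TPM in RES, 166 TPM in ADL) and SC5D (219 TPM in RES, 173 TPM in ADL). FDPS, at the centre of the route, had means of 10.4 TPM in RES and 5.88 TPM in ADL, and the lowest level was that of HSD17B7 (3.53 TPM in RES, 3.73 TPM in ADL). In the order by mean over 8 lambs, neighbours such as SQLE and LSS (28.1 ± 14.96 and 25.4 ± 8.16 TPM in RES, 11.1 ± 3.52 and 11.9 ± 3.76 TPM in ADL) differed by less than their spread.

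Other genes of the pathway were examined as lists, which together held 61 tested genes, 33 higher and 28 lower in RES, with a median log2 fold change of 0.01. None passed limma's threshold in the 8 lambs. An unadjusted p under 0.05 was reached by 10 of the 61, against 9.70% of all genes, 9 of them higher (5.53% of all genes) and 1 lower (4.17%). Without ADL 3, 6 of the 61 passed limma's adjusted threshold of 0.05 as higher, against 2.42% of all genes, and 8 as lower, against 7.59%. Of 12 tested genes known as SREBP targets outside sterol synthesis, 10 were higher and 2 lower in the 8 lambs, with a median of 0.45. In the fit without ADL 3, FADS1, FASN and SEC14L2 passed limma's adjusted threshold as higher and ELOVL6 as lower. FADS1, a desaturase of polyunsaturated fatty acids, had 101, 193, 79.0 and 39.6 TPM in RES and 15.2, 16.98, 21.9 and 8.31 TPM in ADL. The groups did not overlap (log2 fold change 2.54, SE 0.45, limma adjusted p = 0.182). FADS2, the desaturase of the step before, had 43.98 to 431 TPM in RES and 20.3 to 57.7 TPM in ADL, and FASN, the fatty acid synthase, had 2.06 to 2.33 TPM in RES and 0.963 to 1.67 TPM in ADL. SEC14L2, a lipid-binding protein that stimulates squalene epoxidase, had a log2 fold change of 1.21 (limma adjusted p = 0.359; 0.0313 without ADL 3). ELOVL6, a fatty acid elongase, had 10.5 to 15.7 TPM in RES. Its ADL levels were 31.8 to 63.5 TPM, other than 7.50 TPM in ADL 3 (log2 fold change -1.24, limma adjusted p = 0.503; -1.88 and 0.00592 without ADL 3).

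Genes that supply acetyl-CoA were divided, 3 of 6 higher and 3 lower. ACSS2, which makes acetyl-CoA from acetate, had 35.2, 23.1, 23.96 and 23.2 TPM in RES and 14.6, 9.498, 23.3 and 12.1 TPM in ADL, where ADL 3 alone was at RES level (log2 fold change 0.86, SE 0.27, limma adjusted p = 0.359). Without ADL 3 it rose by 1.09 (adjusted p = 0.0190), whereas ACLY, which makes acetyl-CoA from citrate, fell by 0.87 (limma adjusted p = 0.0279). In the 8 lambs 7798 of all 13812 genes tested were lower in RES. Of 11 genes that direct the breakdown of sterol synthesis enzymes or hold back SCAP, 8 were lower and 3 higher (median log2 fold change -0.15). PAQR3 and ERLIN1 of that list fell by 1.40 and 0.94 without ADL 3 (limma adjusted p = 0.0180 and 0.0181), and in both of them ADL 3 was below every RES lamb.

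In the list of liver X receptor and sterol efflux genes, 3 of 6 were higher. ABCG8 and ABCG5 together form the pump that moves sterol into bile. ABCG8 had 15.3, 24.3, 13.5 and 16.8 TPM in RES and 11.1, 5.66, 11.8 and 6.45 TPM in ADL, without overlap (log2 fold change 0.99, SE 0.27, limma adjusted p = 0.296). ABCG5 had a log2 fold change of 0.94 (SE 0.36), and without ADL 3 both rose (1.15 and 1.25, limma adjusted p = 0.0353 and 0.0355). LPCAT3 of the same list fell by 1.18 without ADL 3 (limma adjusted p = 0.0416), a call lost after median-of-ratios rescaling (0.0757). Isoprenoid branch genes were split 6 and 6, with none past the threshold in either fit. Among 12 genes of intracellular sterol transport, LIPA, the lysosomal hydrolase of cholesteryl esters, had the smallest p, with 136 ± 27.6 TPM in RES and 83.4 ± 24.8 TPM in ADL (log2 fold change 0.72, SE 0.23, limma adjusted p = 0.363), and OSBP fell by 0.48 without ADL 3 (adjusted p = 0.0340), a call also lost after that rescaling (0.0628). Of the oxysterol and bile acid enzymes, HSD3B7 and AKR1D1 were tested, with log2 fold changes of 0.31 and 0.01 in the 8 lambs and of 0.53 and -0.30 without ADL 3, none past limma's threshold.

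The authors' deposited table, from their own DESeq2 comparison of the same 8 libraries, lists 4 of the 32 genes with an adjusted p under 0.05, against 2.30% of the 16794 genes with an adjusted p there (1.25% higher and 1.05% lower). In the authors' deposited table SQLE and FDPS were higher in RES, with shrunken log2 fold changes of 1.13 and 0.79 (adjusted p = 0.00699 and 0.00905). MVK and PMVK were lower in the authors' deposited table, with -0.91 and -1.01 (adjusted p = 0.0332 and 0.0345). MVD and NSDHL were next in the authors' deposited table (adjusted p = 0.0533 and 0.0648), and SREBF2, INSIG1 and INSIG2 had adjusted p of 0.644 to 0.995 there. These values rest on the same lambs as the limma fit and add no further animals.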

How the data were processed

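Polyadenylated liver RNA was sequenced from both ends, 1 library per lamb, per the labels' protocols. The tools named are bcl2fastq 1.8.4 and DESeq2 1.12.4, per the submitters' processing notes, with aligner, counter and build not given in the sources used here. The authors deposited TPM per lamb with the gene length behind it, a mean of normalized counts (a signal), log2 fold changes with standard errors, a Wald score, p-values and adjusted p-values, per the file headers. Each deposited log2 fold change is theirs and is quoted as such.

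Whole reads per gene were recovered from TPM and length (100% of values above 0 whole within 0.001), and their scaled means equalled the deposited means in 22465 genes. After a filter (mean TPM 1 or more), log2(TPM + 0.5) was fitted with limma 3.58.1 in R 4.3.3 with a trended prior. Tests were two-sided, and the Benjamini-Hochberg adjustment covered every gene tested. TPM is a share, so abundant genes shift all others. The procedure was tested on simulated data.

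Members and gene lists were chosen with earlier results of these data known. Values in every lamb are given for the 8 members with the smallest p, as none passed, for SREBF2, INSIG1, INSIG2, SOAT1 and SOAT2, and, chosen after their values were seen, for others. Other lists name passing genes or those with the smallest p. Some genes counted in these lists are not reported here by name. Their names were matched by symbol, then by identifier in a RefSeq gene table (ARS-UI_Ramb_v3.0, names only). A planned description of promoter motifs was not run, since no sequences were used here. Reads of similar genes may be assigned to the wrong copy.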

Additional observations from a re-analysis of the deposited data

Results flagged for a closer look

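In groups of 4 lambs, a lamb was singled out when its gap to the nearest other lamb was too large a part of the group's range (above the 95% critical value of Dixon's test), which chance does in about 1 in 20 groups. Of 64 groups (32 genes in RES and in ADL), 5 were singled out. RES 1 was high for ACAT2 (514 TPM), FDFT1 (75.2 TPM) and LBR (13.01 TPM). In ADL, ACAT2 was high in ADL 3 (388 TPM) and TM7SF2 was high in ADL 2 (46.0 TPM).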

How the results depend on the processing

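With 4 lambs a group, the sterol results were judged under 22 alternatives, of which 2 were added after seeing the data. No sterol gene passed in 8 lambs, and leaving out 1 lamb gave 0 to 6 genes higher and 0 to 3 lower in RES, all of them without ADL 3. Sample quality weights (0.16 for ADL 3) gave 9 higher and 3 lower, rescaling without ADL 3 gave 6 and 2, and leaving out ADL 3 and RES 4 gave 8 and 2. The cause was not tested. Over all genes 1 passed, against 0 with no filter, with median-of-ratios rescaling, with voom and with lamb number as a block. The exact permutation test also gave 0, which its smallest p of 0.0286 made nearly certain after adjustment. Counts over all genes were 0 to 1382 with a lamb left out, 1150 and 1145 in the added fits and 1969 with weights. The replicate block changed no sterol gene's call. Same-numbered lambs share only a number, their deviations correlated at -0.044 to 0.159 across genes, and 2 of the 4 RES lambs correlated best with their own. The median over the 32 genes ran from 0.11 to 0.36, the highest with ADL 3 left out and rescaling.

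In 25 of the 32 genes no alternative reversed the sign. With lambs left out, log2 fold changes ran from -0.41 to 0.11 for HMGCS1 (reversed without ADL 1) and -0.18 to 0.056 for HSD17B7 (without RES 2 or ADL 1). They ran from -0.0013 to 0.25 for SREBF2 (without ADL 3) and -0.75 to 0.36 for INSIG1 (without RES 2 or ADL 4). For NPC1 they ran from -0.075 to 0.13 (without RES 1 or ADL 3), and for NPC2 from -0.18 to 0.0097 (without ADL 2). For MYLIP they ran from -0.35 to 0.14. The 0.14 was with ADL 3 left out and rescaling, and the sign also reversed without RES 3. HSD17B7 was also reversed without ADL 1 (0.00042), with weights (0.0062) and after rescaling without ADL 3 (0.0033), and MYLIP after that rescaling (0.14) and without RES 3 (0.040). INSIG1 was reversed with age as covariate (0.13), without RES 2 (0.36) and without ADL 4 (0.29), and NPC1 with weights (-0.082), without RES 1 (-0.013) and without ADL 3 and RES 4 (-0.018). HSD17B7 and NPC1 were not tested at a mean TPM of 5 or more. Low depth, 98 reads at the least for GGPS1, limits small differences.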
